A study of Homo sapiens with 33 samples.

Results

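The 10 genes described here encode regulators of mitochondrial apoptosis of the BCL2 family. They are the anti-apoptotic genes BCL2, BCL2L1 (BCL-XL), BCL2L2 (BCL-W) and MCL1, the effector genes BAX and BAK1, and the BH3-only genes BCL2L11 (BIM), PMAIP1 (NOXA), BBC3 (PUMA) and BID. They were taken by gene symbol from the 29744 genes of the deposited tables, and the list of symbols was drawn up with earlier results of these data known. All 10 were present and all 10 could be tested in every comparison.

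RNA was sequenced from 33 libraries of 11 cell lines of high-grade serous ovarian carcinoma, with 3 libraries per line, to compare platinum-resistant cells with the sensitive cells they are related to. The lines fall into 4 families, with 4 sensitive lines (OVCAR3, OVCAR4, PEA1 and PEO1) and 7 resistant lines. The roles of the lines are those the study gives them. OVCAR3 ResA and ResB and OVCAR4 ResA and ResB were selected from their parental lines in culture by independent pulsed exposure to cisplatin, so each is 1 selected population, and they were not kept in the drug afterwards. PEA2, PEO4 and PEO6 are commercially available lines from the same patients as PEA1 and PEO1, collected at other times in the disease, so these pairs differ in more than a drug selection. No library is described as drug-treated, so the values are those of growing cells and not of cells responding to cisplatin. The labels do not say that the 3 libraries of a line came from separate cultures, and p-values therefore measure the spread between libraries, which may be technical.

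BCL2 family proteins control the permeability of the outer mitochondrial membrane. BAX and BAK1 form the pores through which cytochrome c leaves the mitochondrion, the anti-apoptotic proteins hold them in check, and BH3-only proteins relay stress signals by binding the anti-apoptotic proteins or by activating the effectors directly. Cisplatin forms DNA adducts, and the death that follows runs largely through this pathway. In ovarian carcinoma BCL-XL and MCL1 are studied as drug targets.

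The promoters of 3 members are given here because of their values in the PEO family, where BAK1 was higher and BCL2L11 lower in both resistant lines than in PEO1 and PMAIP1 differed between PEO4 and both other lines. Each sequence covers the 250 bases before the annotated start in RefSeq (GRCh38.p14), read 5′ to 3′ on the strand of the gene, at chr6:33580277-33580526 (minus strand) for BAK1, chr2:111120664-111120913 (plus strand) for BCL2L11 and chr18:59899746-59899995 (plus strand) for PMAIP1. Capitals mark matches, on either strand, to 4 motifs: TGACGT (the core bound by ATF and CREB factors), GTAAACA (the core bound by FOXO factors), CACGTG (an E-box) and GGGCGG (a GC box).
BAK1: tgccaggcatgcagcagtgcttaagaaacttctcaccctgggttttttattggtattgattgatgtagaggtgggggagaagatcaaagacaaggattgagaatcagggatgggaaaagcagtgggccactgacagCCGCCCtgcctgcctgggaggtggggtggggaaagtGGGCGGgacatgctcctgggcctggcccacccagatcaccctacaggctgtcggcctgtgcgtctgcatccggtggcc
BCL2L11: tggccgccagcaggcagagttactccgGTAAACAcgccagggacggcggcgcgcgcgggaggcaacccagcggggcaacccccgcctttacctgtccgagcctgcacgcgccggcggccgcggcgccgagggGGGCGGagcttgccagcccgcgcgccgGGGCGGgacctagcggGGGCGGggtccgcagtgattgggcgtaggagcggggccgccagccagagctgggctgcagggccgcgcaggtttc
PMAIP1: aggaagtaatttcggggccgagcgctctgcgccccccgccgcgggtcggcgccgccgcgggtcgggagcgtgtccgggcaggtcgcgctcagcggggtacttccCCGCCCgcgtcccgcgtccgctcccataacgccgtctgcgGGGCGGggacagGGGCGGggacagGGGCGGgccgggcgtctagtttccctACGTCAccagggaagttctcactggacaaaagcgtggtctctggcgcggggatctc
The BAK1 window held 2 GC boxes and none of the other motifs. The BCL2L11 window held 3 GC boxes and 1 GTAAACA, a motif present in 2.98% of the 35116 promoter windows searched. The PMAIP1 window held 4 GC boxes and 1 TGACGT, read on the opposite strand as ACGTCA, and TGACGT was present in 7.1% of all windows. GC boxes were present in 42.6% of windows and CACGTG, which none of the 3 held, in 6.34%. These matches describe the letters of the windows and not the binding of a factor.

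The libraries held between 18058967 and 43393960 expected counts, with a median of 30611420. The 2 mitochondrial ribosomal RNA genes took between 1.12% and 14.8% of the counts of a library, and OVCAR4 itself was among the highest at 5.18%, 14.8% and 12%. Levels are given as TPM, which adjust for transcript length and library size and allow genes to be set side by side. The order of lines given below is that in TPM and can differ in counts normalised by DESeq2. On that scale the highest mean was in OVCAR3 ResA for MCL1 and in PEO1 for BCL2L11. For BCL2 it was in PEA1 on both scales, followed by OVCAR4 in normalised counts. Of 9 epithelial carcinoma markers, at least 8 reached 1 TPM in every library of 10 lines, and 6 did in PEA1, where their summed level was 405 to 448 TPM against 2339 to 8063 TPM elsewhere. Of 6 fibroblast markers, no more than 2 reached 1 TPM throughout any line, and their sum was 66.1 to 106 TPM in PEA1, led by COL1A1, against at most 30.5 TPM elsewhere. The 6 leukocyte markers summed to 2.51 to 57.7 TPM, led by CD68. The pan-leukocyte gene PTPRC reached 1 TPM in 3 libraries (at most 3.57 TPM) and CD14 in 11 (at most 3.62 TPM), while CD3E and LYZ stayed under 1 TPM in all. The 4 endothelial markers summed to between 0.0217 and 14.7 TPM, with the highest value in OVCAR3 ResB. The 2 erythroid markers were not analysed here. In bulk libraries fewer cells of a type and less RNA per cell cannot be told apart.

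Among the anti-apoptotic genes MCL1 and BCL2L1 were expressed at the highest levels. MCL1, a short-lived protein that restrains BAK1, ranged from 90.3 to 312 TPM over the libraries with a median of 166 TPM. The means per line ran from 107 ± 14.6 TPM (SD, n = 3) in PEO4 to 293 ± 18.4 TPM in OVCAR4 ResA. In the order of the means OVCAR3 stands next to PEO1, and only at this step did the libraries of neighbouring lines not overlap.

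BCL2L1, whose main product protects cells in many epithelial tumours, ranged from 45.5 to 221 TPM with a median of 99 TPM. PEA2 had the highest mean, 187 ± 19.3 TPM, and OVCAR3 ResB the lowest, 72.4 ± 42.0 TPM. Every neighbour in the order overlapped the next, so no step between adjacent lines exceeded the spread.

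BCL2L2 ranged from 8.15 to 24.8 TPM, from 10.8 ± 0.357 TPM in PEA1 to 23.9 ± 0.990 TPM in PEA2. A read-through transcript from the same locus, BCL2L2-PABPN1, was listed at 55.8 to 234 TPM, more than BCL2L2 itself in every library. Reads of the 2 entries cannot be told apart over shared exons, so BCL2L2 values are uncertain.

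BCL2, the founding member, was low in 10 lines. PEA1 held 10.5, 6.50 and 16.1 TPM (mean 11 ± 4.8), and the highest mean elsewhere was 1.58 ± 0.655 TPM in OVCAR4 ResA. PEA2, at 0.248 ± 0.0867 TPM, and OVCAR3 ResA, at 0.172 ± 0.0889 TPM, lay below all others, and each value there rests on 10 to 24 counts per library. PEA1 therefore stood above, and these 2 lines below, the 8 lines in between, whose libraries overlapped from each line to the next.

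The effector BAX, which moves from the cytosol into the mitochondrial membrane when activated, ranged from 21.0 to 117 TPM with a median of 65.8 TPM. It was highest in OVCAR4 (98.4 ± 14.7 TPM) and lowest in OVCAR3 (22.9 ± 2.45 TPM). All 3 lines of the OVCAR3 family lay below all libraries of the other 8 lines. BAK1, which resides in the mitochondrial membrane, ranged from 6.60 to 45.7 TPM, with the highest mean in PEO4 (36.8 ± 8.99 TPM) and the lowest in OVCAR3 ResB (12.2 ± 7.09 TPM), and neighbouring lines overlapped throughout.

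Among the BH3-only genes BID, which is cleaved by caspase-8 and links death receptors to mitochondria, had the highest median, 76.7 TPM, with libraries from 31.5 to 133 TPM. PEO1 (126 ± 7.70 TPM) lay above, and PEA1 (35.6 ± 3.67 TPM) below, all other lines. The step below PEO1 was narrow, from 118.08 TPM in PEO1 to at most 117.76 TPM in PEA2. In normalised counts the libraries of PEO1 and PEA2 overlapped. PMAIP1, which mainly binds MCL1, ranged from 6.44 to 145 TPM and split the families. Every library of the PEA and PEO lines held at least 44.1 TPM and no library of the OVCAR lines more than 24.5 TPM.

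BCL2L11, which binds all the anti-apoptotic proteins, ranged from 2.19 to 21.7 TPM, from a mean of 3.44 ± 1.08 TPM in PEA2 to 16.7 ± 4.70 TPM in OVCAR4 ResA. BBC3, a p53 target, ranged from 0.559 to 19.5 TPM, from 1.28 ± 1.24 TPM in OVCAR4 ResA to 11.8 ± 6.64 TPM in OVCAR4. Neighbouring lines overlapped throughout for both genes.

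**Figure D1:**
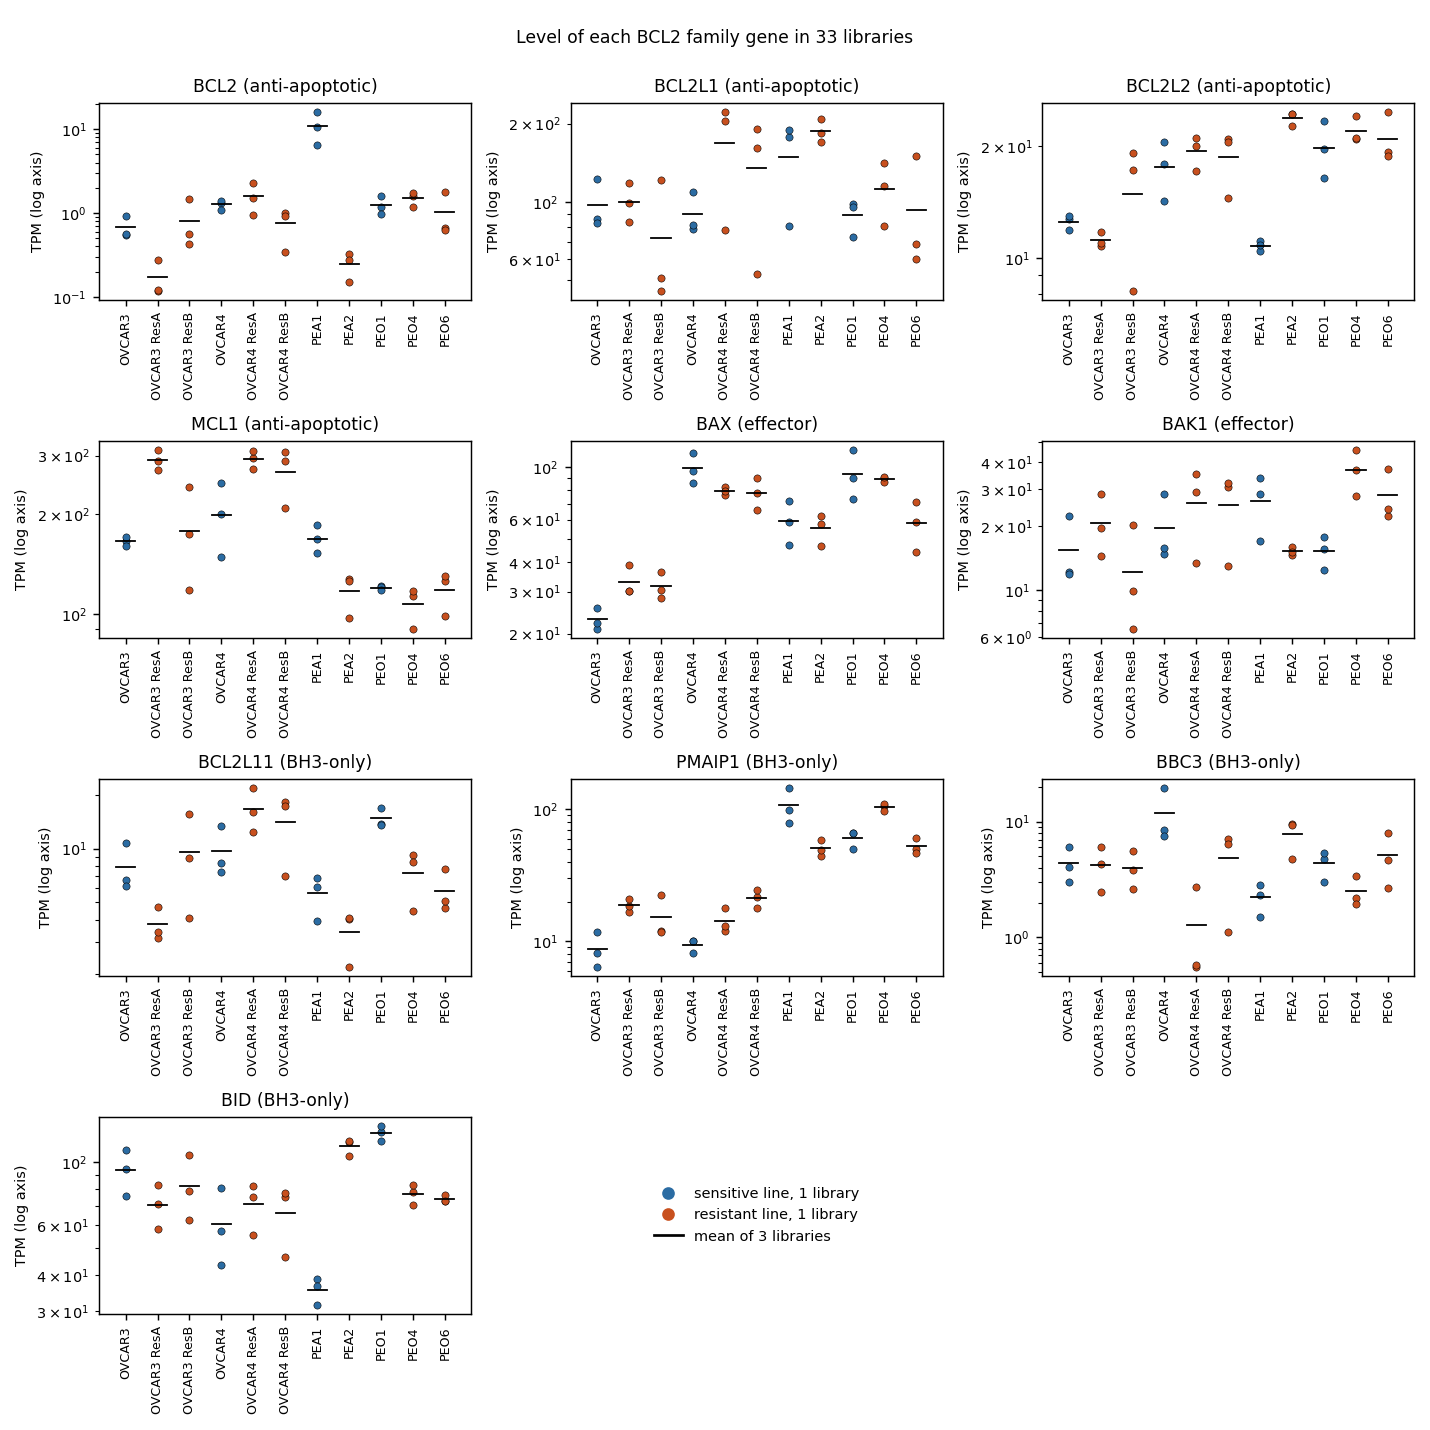
Level of each member in the 33 libraries, in TPM on a log axis, by line, with points for libraries and bars for line means. PEA1 stands apart for BCL2 (6.50 to 16.1 TPM), and PMAIP1 is at or above 44.1 TPM in every PEA and PEO library.

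The make-up of each class was compared within libraries, where shares do not depend on the scaling of the library. MCL1 took 31.9% to 75.5% of the summed TPM of the 4 anti-apoptotic genes and BCL2L1 19.1% to 60.5%, while BCL2 took 0.0289% to 4.01%. MCL1 had the larger mean share in 9 lines. BCL2L1 led in PEA2, with 57.0% against 35.6% for MCL1, and by a small margin in PEO4.

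BAX made up 51.4% to 88.6% of the effector sum and exceeded BAK1 in every library. The mean share of BAK1 was 14.3% in PEO1, 29.1% in PEO4 and 32.5% in PEO6. BID was the largest of the 4 BH3-only genes in 9 lines. PMAIP1 was the largest in PEA1, where it took 70.3%, against 28.9% in PEA2, and in PEO4, where it took 54.7%, against 29.4% in PEO1.

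**Figure D2:**
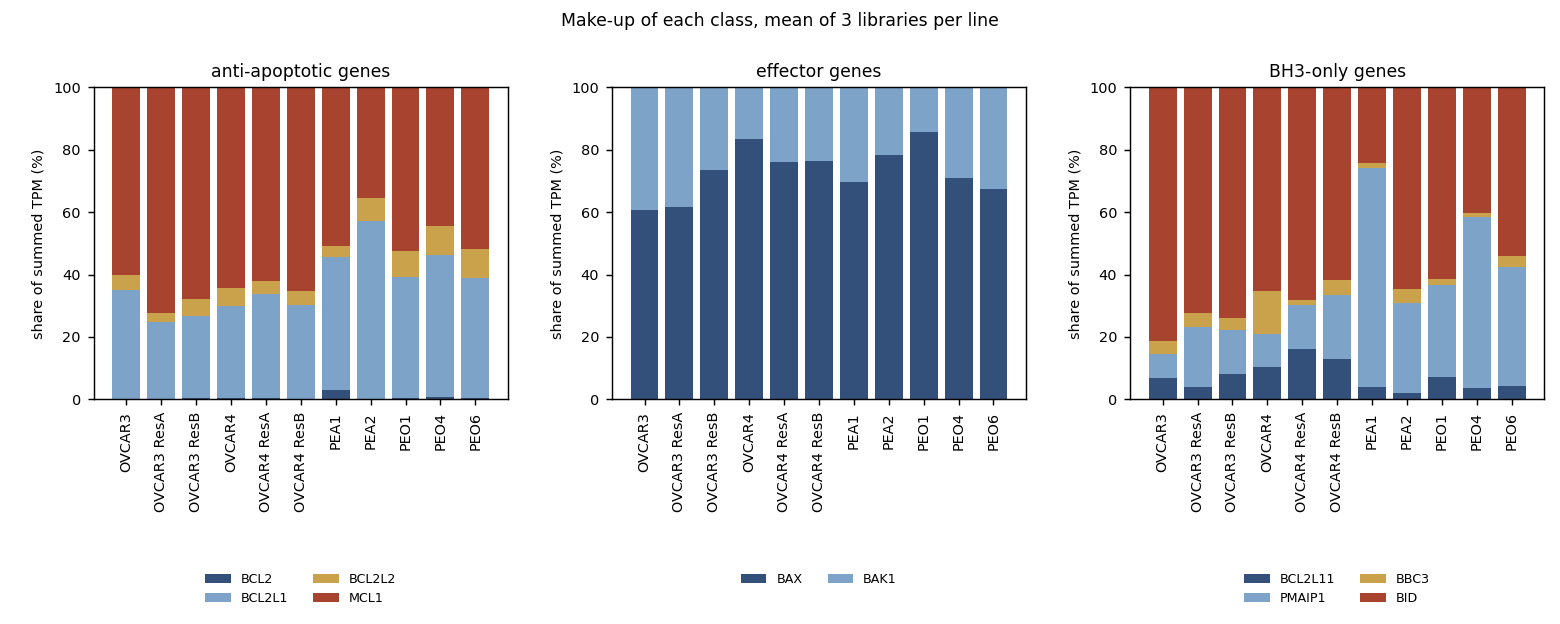
Mean share of each gene in the summed TPM of its class, in percent, for the 3 libraries of each line. BCL2L1 takes 57.0% of the anti-apoptotic sum in PEA2, and PMAIP1 takes 70.3% of the BH3-only sum in PEA1.

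Each resistant line was compared with its sensitive line on the expected counts, with DESeq2 and replicate number in the model (the block), and a gene was called at an adjusted p under 0.05 over all genes. The pairs within the OVCAR3, OVCAR4 and PEO families share their sensitive libraries, so their results are given side by side and are not independent. Of 70 combinations of member and pair, 22 were called (8 higher, 14 lower in the resistant line), or 31.4%, against 29.8% of all genes tested and 33.2% of the better-expressed genes, those at 100 or more normalised counts on average. The members as a group were therefore called about as often as other genes.

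By role, 5 of 28 combinations were called among the anti-apoptotic genes (2 higher, 3 lower), 5 of 14 among the effectors (2 higher, 3 lower) and 12 of 28 among the BH3-only genes (4 higher, 8 lower). Over all genes 29.8% of tested combinations were called, 17569 higher and 17339 lower. The lower BH3-only calls include BCL2L11 and BID in both PEO4 and PEO6, which were compared with the same PEO1 libraries. BCL2 was called lower in 3 pairs and BCL2L11 lower in 3 pairs, each without a call in the other direction. BAX was called lower in 2 pairs. BID was called lower in 3 pairs and higher in 1. BCL2L1 was called in none of the 7 pairs with DESeq2, with 1 pair at an unadjusted p under 0.05, and edgeR and limma called it in none either. With the mitochondrial ribosomal RNA share added to the model with the block, BCL2L1 was called lower in OVCAR3 ResB and OVCAR4 ResB. Among all alternatives it was called in 3 for OVCAR3 ResB, 2 each for OVCAR4 ResB, PEA2 and PEO4 and 1 for OVCAR4 ResA. Its log2 fold changes over them were -0.97 to -0.36 in OVCAR3 ResB, -0.65 to 0.41 in OVCAR4 ResB and -0.35 to 0.78 in OVCAR4 ResA. They were -0.09 to 0.63 in PEA2 and 0.24 to 0.96 in PEO4.

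**Figure D3:**
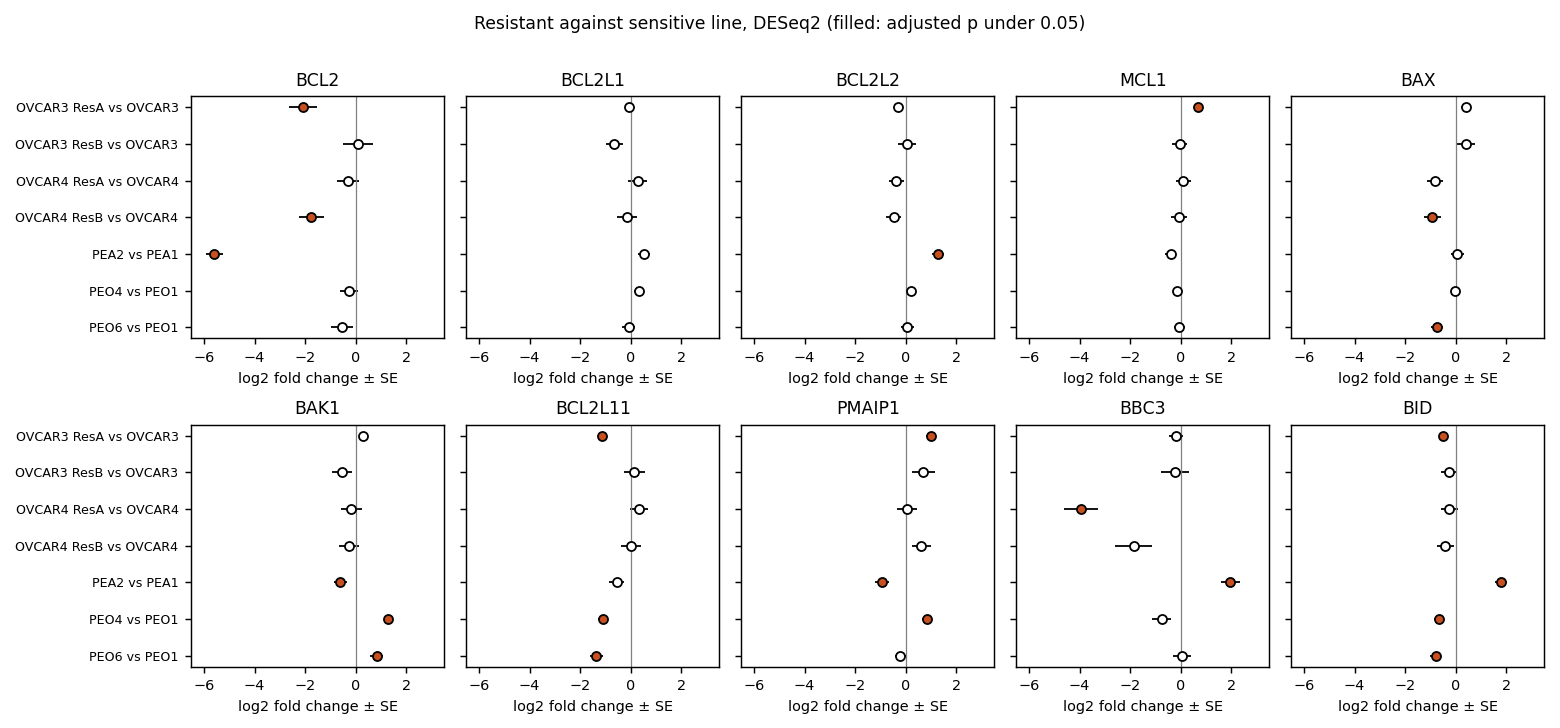
Log2 fold change of each member in each resistant line against its sensitive line (DESeq2, bars give the standard error), with called values marked. BCL2 in PEA2 (-5.58) and BBC3 in OVCAR4 ResA (-3.93) are the furthest from 0.

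In OVCAR3 ResA 5 of the 10 members were called, 2 higher and 3 lower, where 44.9% of all genes tested were called (22% higher, 22.9% lower). MCL1 was at 166, 160 and 171 TPM in OVCAR3 and 272, 312 and 288 TPM in OVCAR3 ResA. It was higher in ResA, by 0.69 ± 0.09 on the log2 scale (SE), or 1.61-fold (DESeq2 adjusted p = 4.73e-12), with no overlap. PMAIP1 was at 8.12, 6.44 and 11.8 TPM in OVCAR3 and 16.6, 18.5 and 21.0 TPM in ResA, a log2 fold change of 0.98 ± 0.18 (DESeq2 adjusted p = 1.7e-07).

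MCL1 and PMAIP1 were thus both higher in ResA, and the libraries of neither overlapped. BCL2L11 was at 10.7, 6.66 and 6.15 TPM in OVCAR3 and 4.74, 3.16 and 3.43 TPM in ResA (log2 fold change -1.12 ± 0.18, DESeq2 adjusted p = 4.56e-09). All ResA libraries were below all OVCAR3 libraries. BID fell by 0.50 ± 0.10 on the log2 scale (DESeq2 adjusted p = 6.82e-06), a separation seen in normalised counts but not in TPM, where 83.1, 71.2 and 57.9 TPM in ResA overlapped 110, 93.9 and 76.0 TPM in OVCAR3.

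BCL2 was at 0.915, 0.548 and 0.561 TPM in OVCAR3 and 0.119, 0.122 and 0.274 TPM in ResA, or 4.27-fold lower (log2 fold change -2.09 ± 0.55, DESeq2 adjusted p = 0.000488), on 34 to 75 against 10 to 18 counts. The mitochondrial ribosomal RNA share was 2.39%, 4.93% and 7.52% in OVCAR3 and 1.86%, 3.79% and 5.57% in ResA, and with it in the model beside the block none of the 5 calls remained. The share rose with replicate number in both lines and was lower in ResA at each number. That fit could therefore hardly separate it from line and block, and the lost calls do not show a dependence on the share. In that model the fitted values of 4 of the 5 lay further from 0 (MCL1 0.88, PMAIP1 2.88, BCL2L11 -4.01 and BCL2 -9.28 on the log2 scale), and the share without the block gave 6 of 10 calls and edgeR 8. The BCL2 call was also lost without replicate 1, where the members called were 4. On the TPM scale limma called 4886 genes higher and 2786 lower in this pair, and the median gene was 0.13 lower on the log2 scale in DESeq2 than in TPM.

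In OVCAR3 ResB none of the 10 members was called by DESeq2, edgeR or limma and none had an unadjusted p under 0.05, where 7.67% of all genes were called (4.1% higher, 3.57% lower). MCL1 was at 174, 118 and 242 TPM in ResB, a range that took in all 3 OVCAR3 libraries. The mitochondrial ribosomal RNA share of the ResB libraries was 5.97%, 8.88% and 1.12%, and the library with the lowest share held the highest MCL1, BCL2L1, BAK1 and BCL2L11. ResB had the largest coefficient of variation of the 11 lines for 7 of the 10 members. Without replicate 3, 3 members were called, and 2 were with the ribosomal RNA share in the model.

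In OVCAR4 ResA 1 of the 10 members was called, where 11.9% of all genes were (6.68% higher, 5.22% lower). BBC3 was at 8.53, 19.5 and 7.48 TPM in OVCAR4 and 2.72, 0.559 and 0.573 TPM in ResA. It was 15.2-fold lower (log2 fold change -3.93 ± 0.67, DESeq2 adjusted p = 3.18e-07), on 161 to 380 against 13 to 60 counts. The groups did not overlap, and neither edgeR nor limma called the difference. Over the alternatives the log2 fold change of BBC3 ran from -5.02, without replicate 1, to -2.49, and without replicate 1 the members called were 4.

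In OVCAR4 ResB 2 of the 10 members were called, both lower, where 17.9% of all genes were called (9.09% higher, 8.77% lower). BCL2 was at 1.33, 1.09 and 1.41 TPM in OVCAR4 and 0.341, 0.988 and 0.928 TPM in ResB (log2 fold change -1.75 ± 0.49, DESeq2 adjusted p = 0.00355). BAX was at 96, 114 and 85.1 TPM in OVCAR4 and 65.8, 77.4 and 89.7 TPM in ResB (log2 fold change -0.93 ± 0.34, DESeq2 adjusted p = 0.0380). The groups were apart for BCL2 and overlapped for BAX in TPM, though not in normalised counts.

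BBC3 in ResB, at 7.08, 1.11 and 6.45 TPM, had a log2 fold change of -1.86 ± 0.72 that missed the threshold (DESeq2 adjusted p = 0.0548). Both calls were lost with edgeR, with limma and without replicate 2 or replicate 3, each of which left 0 members called, while without replicate 1 there were 3. With the ribosomal RNA share in the model 7 members were called with the block and 8 without it.

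The scale matters in the OVCAR4 pairs. The median gene was 0.50 lower in ResA and 0.54 lower in ResB on the log2 scale in DESeq2 than in TPM, and the limma test on TPM called 63 genes higher and 25 lower in ResA and 168 higher and 84 lower in ResB. The mitochondrial ribosomal RNA share was 9.23%, 2.02% and 2.09% in ResA and 13.1%, 2.47% and 2.39% in ResB, below OVCAR4 in all but replicate 1. Its part in these results was not tested beyond the fits that carry it as a covariate.

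PEA2 against PEA1 gave the most calls, 6 of 10 members with 3 higher and 3 lower, where 47% of all genes were called (23.3% higher, 23.8% lower). BCL2 was at 0.320, 0.273 and 0.152 TPM in PEA2 against 10.5, 6.50 and 16.1 TPM in PEA1. It was 47.9-fold lower (log2 fold change -5.58 ± 0.35, DESeq2 adjusted p = 1.94e-55), and every PEA2 library lay far below every PEA1 library. This call held in all alternatives run.

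BID was at 105, 117 and 118 TPM in PEA2 against 38.7, 31.5 and 36.6 TPM in PEA1, or 3.47-fold higher (DESeq2 adjusted p = 5.27e-14). BBC3 was at 4.73, 9.50 and 9.42 TPM against 1.5, 2.85 and 2.31 TPM, or 3.89-fold higher (log2 fold change 1.96 ± 0.36, DESeq2 adjusted p = 3.31e-07). These 2 BH3-only genes were higher in the resistant line, and neither pair of groups overlapped. PMAIP1 was at 44.1, 59.0 and 49.6 TPM against 99.4, 145 and 79.5 TPM (log2 fold change -0.93 ± 0.27, DESeq2 adjusted p = 0.00173), lower in all 3 PEA2 libraries.

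BCL2L2 was at 24.5, 24.5 and 22.8 TPM in PEA2 against 11.1, 10.4 and 10.8 TPM in PEA1 (log2 fold change 1.27 ± 0.23, DESeq2 adjusted p = 3.65e-07), with the uncertainty of the read-through transcript. Summed with that entry, the TPM of BCL2L2 in PEA1 was 99.4 and the TPM of BCL2L2 in PEA2 was 109.6. BAK1 had a log2 fold change of -0.61 ± 0.25 (DESeq2 adjusted p = 0.0371), a call lost in 8 alternatives. The PMAIP1 call was lost without replicate 1 or replicate 2 and with the ribosomal RNA share. BBC3 was lost with that share beside the block (DESeq2 adjusted p = 0.0607), where 3 members stayed called.

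PEA1 and PEA2 differed in the marker lists beside these results. The epithelial sum was 405 to 448 TPM in PEA1 and 4245 to 4528 TPM in PEA2, the fibroblast sum 66.1 to 106 against 0.665 to 1.16 TPM, the leukocyte sum 10.6 to 23.8 against 55.2 to 57.7 TPM and the endothelial sum 0.0217 to 0.121 against 5.68 to 8.78 TPM. The fibroblast genes COL3A1 and DCN and the leukocyte gene CD3E were at 0 in both lines. The part of these differences in the member results was not tested.

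In PEO4 4 of the 10 members were called, 2 higher and 2 lower, where 33.3% of all genes were called (16.6% higher, 16.7% lower). In PEO6 4 were called, 1 higher and 3 lower, where 41.4% of all genes were (21.2% higher, 20.3% lower). Both lines share the PEO1 libraries. BAK1 was at 17.8, 12.5 and 15.6 TPM in PEO1, 45.7, 36.9 and 27.7 TPM in PEO4 and 22.3, 24.3 and 37.4 TPM in PEO6.

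It was 2.44-fold higher in PEO4 (log2 fold change 1.29 ± 0.19, DESeq2 adjusted p = 1.13e-10). In PEO6 it was higher by 0.83 ± 0.25 on the log2 scale (DESeq2 adjusted p = 0.00314). The PEO1 libraries lay below all libraries of both lines. The PEO4 call held in all alternatives, and the PEO6 call was lost without replicate 2 or replicate 3 and in 2 of the limma fits (pseudocount 0.1, and no filter).

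BCL2L11 was at 16.9, 13.7 and 13.6 TPM in PEO1, 9.16, 8.38 and 4.46 TPM in PEO4 and 4.66, 5.11 and 7.72 TPM in PEO6. It fell by 1.09 ± 0.21 on the log2 scale in PEO4 (DESeq2 adjusted p = 1.71e-06) and by 1.36 ± 0.26 in PEO6 (DESeq2 adjusted p = 1.07e-06). All PEO1 libraries were above all others of the family. The PEO6 call held in all alternatives, and the PEO4 call was lost with the ribosomal RNA share and in the limma fit with no filter.

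BID was at 127, 133 and 118 TPM in PEO1, 78.4, 83.1 and 70.3 TPM in PEO4 and 72.9, 76.7 and 73.0 TPM in PEO6. It fell by 0.68 ± 0.17 (DESeq2 adjusted p = 0.000334) and by 0.80 ± 0.22 (DESeq2 adjusted p = 0.000965) on the log2 scale, without overlap. The PEO4 call was lost without replicate 1 and the PEO6 call without replicate 2 (DESeq2 adjusted p = 0.0742 and 0.0797).

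PMAIP1 was at 65.9, 66.5 and 49.9 TPM in PEO1, 107, 109 and 98.1 TPM in PEO4 and 50.3, 60.2 and 47.0 TPM in PEO6. It was higher in PEO4 by 0.83 ± 0.19 on the log2 scale (DESeq2 adjusted p = 8.25e-05), and PEO6 overlapped PEO1 (log2 fold change -0.23 ± 0.22). With the ribosomal RNA share in the model beside the block the PEO4 value was -0.02, and the call was also lost in the fit of all 33 libraries. The share was 1.80%, 2.34% and 2.75% in PEO1 and 2.56%, 3.45% and 5.59% in PEO4. It rose with replicate number in both lines and was higher in PEO4 at each number. The fit with the block could therefore hardly separate it from line and block. With the share and no block the PMAIP1 call was kept. BAX fell in PEO6 by 0.73 ± 0.23 (DESeq2 adjusted p = 0.00587), a call lost in 7 alternatives.

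The resistant lines of one family were also compared with each other, which needs no shared sensitive line, and 7 of 30 combinations were called. Between OVCAR3 ResB and ResA, where 13.5% of all genes were called, BCL2 was higher in ResB by 2.20 ± 0.70 on the log2 scale (DESeq2 adjusted p = 0.0161) and BCL2L11 by 1.26 ± 0.40 (DESeq2 adjusted p = 0.0151). Between PEO6 and PEO4, where 18.2% of all genes were called, PMAIP1 fell by 1.06 ± 0.29 (DESeq2 adjusted p = 0.00345), and the PEO6 libraries lay below the PEO4 libraries. Both calls between the OVCAR3 lines were lost whichever replicate number was left out, and without replicate 3 the members called were BCL2L1, MCL1 and BAK1 instead. Between PEO6 and PEO4 there was no call without replicate 2, and without replicate 3 there were 5, PMAIP1 among them.

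Between OVCAR4 ResB and ResA 4 members were called, where 32.8% of all genes were. BCL2 was lower in ResB (log2 fold change -1.42 ± 0.38, DESeq2 adjusted p = 0.00107), as was BCL2L1 (-0.41 ± 0.09, DESeq2 adjusted p = 4.13e-05), while PMAIP1 (0.55 ± 0.17, DESeq2 adjusted p = 0.00585) and BBC3 (1.87 ± 0.54, DESeq2 adjusted p = 0.00278) were higher. In normalised counts the libraries of the latter 3 overlapped between the lines and those of BCL2 did not. In TPM those of BCL2 overlapped, at up to 0.988 TPM in ResB and from 0.956 TPM in ResA. Those of PMAIP1 were narrowly apart in TPM, from 17.97 TPM in ResB and up to 17.89 TPM in ResA. The numbers of the replicates paired the libraries in this comparison, and without the block 1 call remained, that of BCL2. Without replicate 3 the call left was that of BCL2L1, and without replicate 2 those of BCL2 and BBC3 were left.

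At the level of lines, with the counts of each line summed and family in the model, none of the 10 members was called by DESeq2 or edgeR and none had an unadjusted p under 0.05 in either, where 0.286% of all genes were called by DESeq2 (68 of 23782). BCL2 had a log2 fold change of -1.31 ± 0.72 over the 7 resistant lines (DESeq2 adjusted p = 0.916). A likelihood ratio test asked instead whether the effects of the 7 pairs were equal, and 70.2% of all genes tested had unequal effects. BCL2 (DESeq2 adjusted p = 3.24e-58), BID (5.13e-39) and BCL2L2 (2.19e-13) had the smallest values among 9 members with unequal effects. BCL2L1 was the exception (DESeq2 adjusted p = 0.124).

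The chromosome neighbours of each member, 10 tested genes on each side, were examined beside it. BAK1 lies on chromosome 6 (33572552 to 33580276, GRCh38.p14), and in PEO4, where it rose by 1.29, its neighbours had a median log2 fold change of 0.99, with 17 of 20 called, all in the direction of BAK1. In PEO6, where it rose by 0.83, the median was 1.19, with 16 of 20 called and 15 in that direction. The genes around BAK1 were thus higher in both lines together with it.

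Some other called changes lay apart from those of the genes beside them. BCL2 (chromosome 18, 63123346 to 63320090) had -5.58 in PEA2 against a neighbour median of -0.31, and -2.09 in OVCAR3 ResA against 0.38. BBC3 (chromosome 19, 47220824 to 47232860) had -3.93 in OVCAR4 ResA against -0.23, and 1.96 in PEA2 against -0.39. BCL2L11 (chromosome 2, 111120914 to 111168445) had -1.12 in OVCAR3 ResA against 0.37. Nearer to their neighbours were BAX in OVCAR4 ResB, at -0.93 against -0.56, and BAK1 in PEA2, at -0.61 against -0.47. In 15 of the 22 called changes the neighbour median had the sign of the member, and the matching share over all genes is not given here.

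**Figure D4:**
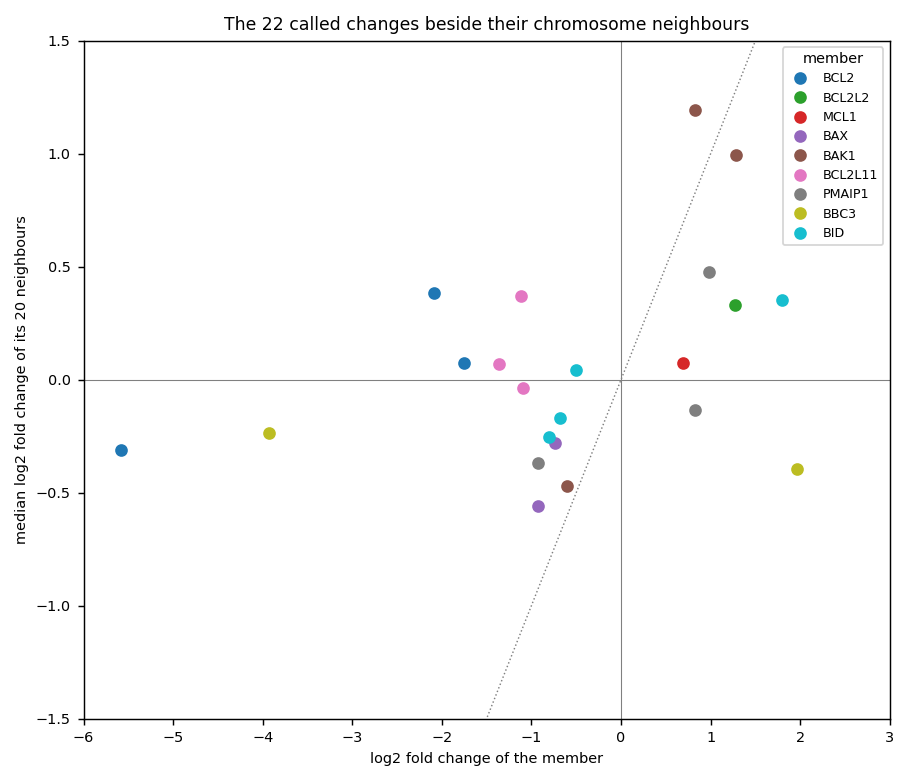
Log2 fold change of each called member against the median log2 fold change of the 20 tested genes nearest to it on its chromosome, with a dotted line where both are equal. BAK1 in PEO4 and PEO6 lies near its neighbours, whose medians are 0.99 and 1.19, and BCL2 in PEA2 (-5.58 against -0.31) does not.

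Within lines, some members followed the mitochondrial ribosomal RNA share. The library with the lowest share held the highest level of BCL2L1 and of BAK1 in 9 of 11 lines, of BCL2L11 in 8 and of BID in 7. For BAX this was so in 6 lines, for BCL2 and MCL1 in 4 each and for BCL2L2 in 3. TPM totals take in the ribosomal RNA genes, so some fall of other genes with a rising share is built in. The library with the highest share held the lowest BID in all 11 lines. PMAIP1 and BBC3 differed, with the highest level in the library of the lowest share in 1 of 11 lines each. The median over 12128 genes was 6 of 11 lines, and the BCL2L2-PABPN1 entry did so in 0.

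**Figure D5:**
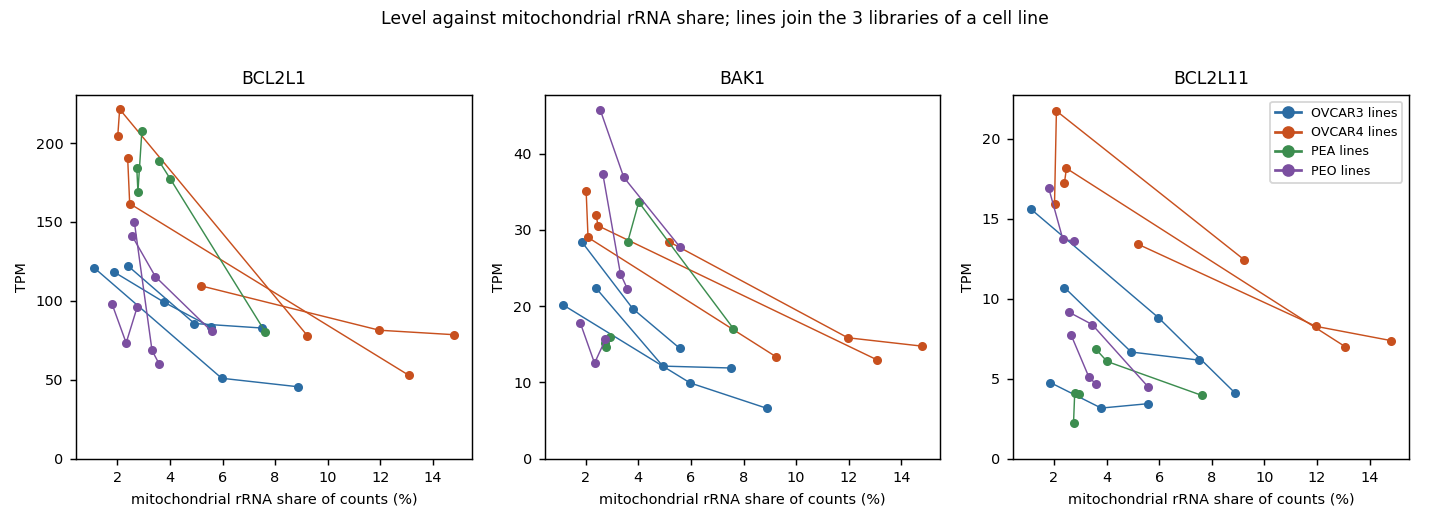
Level of BCL2L1, BAK1 and BCL2L11 in TPM against the mitochondrial ribosomal RNA share of the library in percent, with lines joining the 3 libraries of a cell line, coloured by family. The share runs from 1.12% to 14.8%, and most joined lines slope down.

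The other genes of the pathway were counted by list in the same 7 pairs. Of 66 tested combinations of further BCL2 family genes 27 were called (13 higher, 14 lower), and of 63 for the apoptosome and caspases 21 (10 higher, 11 lower). Inhibitors of apoptosis and their antagonists gave 17 of 56 (7 higher, 10 lower), p53 targets other than the members 41 of 98 (21 higher, 20 lower), regulators of BH3-only genes 28 of 77 (13 higher, 15 lower) and MCL1 turnover genes 8 of 21 (7 higher, 1 lower). The shares ran from 30.4% to 41.8%, against 29.8% of all genes and 33.2% of the better-expressed genes.

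BCL2A1, an anti-apoptotic relative controlled by NF-kB, was at 30.2 TPM in PEA2 against 0.114 TPM in PEA1 (log2 fold change 8.05 ± 0.73, DESeq2 adjusted p = 1.48e-26), on no more than 4 counts in a PEA1 library. PEA2 thus held far more of this anti-apoptotic gene and far less BCL2. BCL2L15 was called higher in OVCAR4 ResA, OVCAR4 ResB, PEO4 and PEO6, at mean levels of no more than 1.06 TPM.

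CASP10, an initiator caspase of death receptors, was called higher in OVCAR4 ResA (1.86), OVCAR4 ResB (2.30), PEA2 (1.31) and PEO6 (2.39, log2 fold changes) and lower in OVCAR3 ResA (-0.87) and PEO4 (-4.89). PEO4 and PEO6 thus lay on opposite sides of PEO1 for this gene. BIRC3, an inhibitor of apoptosis, had a log2 fold change of 2.33 ± 0.41 in OVCAR4 ResA (DESeq2 adjusted p = 9.51e-07) and was also called higher in OVCAR3 ResB (1.98) and OVCAR4 ResB (1.47), and lower in PEA2 (-0.63), PEO4 (-1.40) and PEO6 (-1.67).

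FAS, the death receptor, was called higher in OVCAR3 ResB (2.01), PEA2 (1.93), PEO4 (0.79) and PEO6 (0.72) and lower in OVCAR4 ResA (-1.40). PHLDA3, a p53 target that restrains AKT, had a log2 fold change of -3.18 ± 0.42 in PEA2 (DESeq2 adjusted p = 5.1e-13), and was also called lower in PEO4 (-0.72) and PEO6 (-0.84) and higher in OVCAR3 ResA (1.35). TRIB3, a pseudokinase induced by stress, was called lower in OVCAR3 ResA (-0.35), OVCAR4 ResA (-2.27), PEO4 (-2.12) and PEO6 (-0.96) and higher in PEA2 (2.69).

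FOXO1, a factor that can induce BCL2L11, had log2 fold changes of 0.52 in OVCAR3 ResA, 4.8 in PEA2, -1.64 in PEO4 and -3.69 in PEO6, all called, while BCL2L11 was called lower in OVCAR3 ResA, PEO4 and PEO6 and not called in PEA2. HUWE1, a ubiquitin ligase of MCL1, was called higher in all 4 OVCAR pairs (0.43, 1.38, 1.15 and 1.33) and not called in the other 3. The DESeq2 adjusted p was 9.37e-05, 0.0112, 0.0407 and 0.00553 in that order, and alternative fits are not given here for HUWE1. Its libraries were widely spread in OVCAR3 ResB (119 ± 109 TPM, SD), OVCAR4 ResA (90.3 ± 53.05 TPM) and OVCAR4 ResB (102 ± 54.7 TPM). OVCAR3 ResA was at 48.1 ± 14.7 TPM, OVCAR3 at 32.2 ± 9.11 TPM and OVCAR4 at 24.6 ± 4.60 TPM. FBXW7, another ubiquitin ligase of MCL1, fell by 1.39 ± 0.25 in PEA2 (DESeq2 adjusted p = 3.15e-07) and was called higher in PEO4 (0.47). MCL1 itself was called in OVCAR3 ResA alone among the 7 pairs.

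The genes whose pattern over the 11 line means was most like that of a member were taken from 12128 genes by Pearson correlation. The lines come from 4 families and share the libraries with the members, so these values are descriptions. BAX was closest to RAB8A (r = 0.957) and CHEK1 (0.933), PMAIP1 to ANAPC1 (0.956) and CELF2 (0.951), and MCL1 to YAF2 (0.941). BID was closest to ERGIC2 (0.941) and KIAA0247 (0.901), and BCL2L2 to POLM (0.939) and KAT8 (0.932).

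BCL2L11 was closest to PINK1-AS (0.939) and SMARCC2 (0.900), and BCL2L1 to RAB11FIP1 (0.927) and SPRY2 (0.892). BCL2 was closest to POLR3K (0.919) and PEG10 (0.907) and BBC3 to RN7SL2 (0.918) and RPL23 (0.890). BAK1 was closest to MARS2 (0.899) and TRIM26 (0.881). Among the members themselves the values furthest from 0 were those of MCL1 and PMAIP1 (r = -0.781), BCL2 and BID (-0.616) and BCL2L2 and BAX (0.602).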

How the data were processed

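Poly(A)-selected RNA of 11 lines was sequenced in 33 libraries. The authors quantified reads with Salmon in the nf-core/rnaseq pipeline on GRCh38, and the submitters' processing notes name DRAGEN. Strand use in counting is not given in the sources used here. Per the authors' methods Salmon gave estimated counts per gene, merged into 1 table. These deposited expected counts, of which 88.4% were whole, were rounded for the tests, and the TPM values were used as deposited by the authors. Of 29744 genes, 5100 were at 0 in all libraries after rounding. Libraries held 18058967 to 43393960 counts, and replicates of a line differed by far more than sampling noise.

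Each pair of lines was fitted with DESeq2 1.42.0 (R 4.3.3) on 6 libraries with line and replicate number in the model, no filter, and Benjamini-Hochberg adjustment over all genes. Line-level sums, a likelihood ratio test of equal effects, edgeR 4.0.16, limma 3.58.1 on log2(TPM + 1) and log2(TPM + 0.1), TMM factors, a filter of 10 counts in 3 libraries, 1 fit of all libraries and omission of each replicate number followed. The share of counts on RNR1 and RNR2 was added as a covariate, with the block as planned and without it as an alternative chosen after seeing the data. The scripts were tested on simulated data.

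Same-numbered libraries deviated together (every correlation over 0.1) in 2 of 10 comparisons, OVCAR3 ResA against OVCAR3 and OVCAR4 ResB against OVCAR4 ResA, and not in the other 8. The labels do not say what a replicate number shares.

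Neighbours were the 10 tested genes on each side in RefSeq order. Genes outside the 10 members were named if called in the same direction in at least 4 of 7 pairs, or if their log2 fold change was the largest called in their list among genes averaging 100 or more normalised counts. For each member the 2 genes with the highest correlation were named, except that 1 of them is not reported here for MCL1. The members and lists were chosen with earlier results of these data known.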

Additional observations from a re-analysis of the deposited data

Results flagged for a closer look

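A difference between pairs that a test of the difference itself found is given here for each member. In the likelihood ratio test over the 7 pairs the DESeq2 adjusted p was 3.24e-58 for BCL2, 5.13e-39 for BID, 2.19e-13 for BCL2L2, 4.98e-09 for BAX and 2.07e-07 for MCL1. It was 2.02e-05 for BBC3, 4.15e-05 for BAK1, 0.000205 for PMAIP1 and 0.000449 for BCL2L11. Of all genes 70.2% had unequal effects in this test.

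Resistant lines of one family differed from each other directly in 7 cases. On the log2 scale BCL2 differed by 2.20 and BCL2L11 by 1.26 between OVCAR3 ResB and OVCAR3 ResA. Between OVCAR4 ResB and OVCAR4 ResA the log2 fold changes were -1.42 for BCL2, -0.41 for BCL2L1, 0.55 for PMAIP1 and 1.87 for BBC3. Between PEO6 and PEO4 that of PMAIP1 was -1.06. Groups of 3 libraries are too small for a test of single libraries that stand apart.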

How the results depend on the processing

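Over the 7 resistant-sensitive pairs the 22 member calls were 15 to 22 without 1 replicate number, 26 with no replicate block, 22 with edgeR, 16 to 21 with limma, 19 with the mitochondrial ribosomal RNA covariate beside the block and 33 with that covariate and no block. Of the 22 calls 5 held in every alternative run, those of BCL2, BCL2L2 and BID in PEA2, BAK1 in PEO4 and BCL2L11 in PEO6. None of the 7 calls between resistant lines did. In all, 2 values that were called in either the main or the alternative fit changed sign. BCL2L11 in OVCAR4 ResB was 0.019 and not called in the main fit, and -0.44 with the covariate and no block. PMAIP1 in PEO4 was 0.83 and called in the main fit, and -0.016 with the covariate and the block, which is a lost call rather than a fall. A further 104 sign changes concerned values that were called in neither fit. The cause was not tested for any of these changes.

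Counts of members that moved are given by comparison. In OVCAR3 ResA 5 became 0 with the covariate and the block, 6 with the covariate and no block, 8 with edgeR and 4 to 5 without 1 replicate number. The fit that gave 0 could hardly separate the covariate from line and block. In OVCAR3 ResB 0 became 2 with the covariate in either form and 0 to 3 without 1 replicate number. In OVCAR4 ResA 1 became 2 without the block, 2 and 4 with the covariate with and without it, 0 with edgeR and with each limma fit, 2 in the fit of all libraries and 1 to 4 without 1 replicate number. In OVCAR4 ResB 2 became 4 without the block, 7 and 8 with the covariate with and without it, 0 with edgeR and with each limma fit, 5 in the fit of all libraries and 0 to 3 without 1 replicate number. With the covariate and the block 6 became 3 in PEA2 (4 to 6 without 1 replicate number) and 4 became 2 in PEO4 (3 to 5). In PEO4 that fit could hardly separate the covariate from line and block, and with the covariate and no block 4 were called. In PEO6 4 became 2 with limma at a pseudocount of 0.1 or with no filter and 1 to 3 without 1 replicate number.

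Between resistant lines 7 calls became 12 with the covariate and no block, 3, 1 and 1 with limma (pseudocount 1, pseudocount 0.1, no filter) and 2 to 9 without 1 replicate number. For OVCAR3 ResB and ResA 2 became 5 with the covariate in either form, 1 with edgeR, 0 with each limma fit, 4 in the fit of all libraries and 0 to 3 without 1 replicate number. For OVCAR4 ResB and ResA 4 became 1 with no replicate block, 0 with the covariate and the block, 1 with limma at 0.1 or with no filter, 2 in the fit of all libraries and 1 to 4 without 1 replicate number. For PEO6 and PEO4 1 became 2 without the block, 4 and 3 with the covariate with and without it, 0 with each limma fit, 2 in the fit of all libraries and 0 to 5 without 1 replicate number.

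At the level of lines 0 members were called in every alternative. The members with unequal effects were 9, or 10 without replicate 3. Of the line means in TPM 11 of 110 moved by more than their spread when RNR1 and RNR2 were left out. BCL2 values of 10 to 24 counts a library limit its fold changes.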
